A study of Mus musculus with 12 samples.

Results

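The change of the retinal laser response between day 3 and day 7 was measured in 13065 protein-coding genes, out of 54367 genes of all kinds listed in both tables. A gene was included where its deposited value averaged at least 1 over the 12 libraries, so that Insc (mean 1.0003) and Klf3 (1.003) lay just inside and Dusp18 (0.9994) and Tnfrsf11b (0.9970) just outside. In each gene the lasered minus control difference of log2(value + 1) on day 3 was subtracted from that on day 7, and this difference of differences is called the change of the laser effect below. A negative change means a smaller or more negative difference on day 7. The days come in separate tables, so tests between the days compare only these within-day differences, and where levels of both days stand side by side they were not tested against each other.

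All retinas came from wildtype C57BL/6 mice of 8 to 12 weeks. The right eye received burns from a 532 nm laser (spot of 75 µm, 0.1 s) at 4 positions around the clock face, and the left eye of the same animals went without laser as the control. The 4 groups, each with 3 libraries, were day 3 control, day 3 lasered, day 7 control and day 7 lasered. The labels do not say which lasered and control retinas share a mouse, nor that replicates are separate animals, so a p-value here covers sample-to-sample spread that may be technical. An untouched fellow eye is the only control.

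After a focal burn, Müller glia and astrocytes enter a reactive state, with more intermediate filament and acute-phase protein. Microglia and blood-borne phagocytes take up debris, and the classical complement cascade, opened by C1q, tags material for removal. Type I interferon acts through a complex of STAT proteins and IRF9, which binds the interferon-stimulated response element of its target genes. Which of these programmes stay and which subside in the first week is the question that a difference between the days addresses.

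The day 3 libraries held 9282005 to 12515821 recovered reads and the day 7 libraries 23886203 to 31092906, so day 7 values carry less counting error. Libraries of a day correlated by 0.897 to 0.986 and libraries of different days by only 0.462 to 0.614 across tested genes. In 4677 of the 13065 genes the day means of value + 1 differed over 4-fold, a gap that lies between the tables and cancels only in part in a difference of differences on this scale. Rhodopsin marked all libraries as retina, at 2559.8 or more. Lasered replicate 1 of day 3 stood apart: it was the highest lasered library of its day in 52.5% of genes, the neutrophil list was 5.28 above the controls in it against 0.23 and 2.06 in replicates 2 and 3. Values without it are given for the main results. Lens crystallins were 5.55 above the controls in day 7 lasered replicate 1 and 4.0003 above in day 3 lasered replicate 2, and their part in the results was not tested.

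No gene passed the test of the change of the laser effect (limma, 0 of 13065 at an adjusted p under 0.05 in either direction, 0.0% of all 17611 genes tested, and 0 with voom). In simulated reads the fit recovered 3% of log2 changes of 1 and 69% of those of 2, placed only in genes with many reads. A gene that did not pass is therefore not shown to be unchanged. At an unadjusted p under 0.05 there were 1190 genes with a smaller effect on day 7 and 40 with a larger one, against a background of 8.43% and 0.96% of all genes tested. Of the 13065 genes 8515 had a negative change, and the median was -0.13, with a median laser effect of 0.19 on day 3 and 0.07 on day 7. The lean of the median depended on the scaling: it was -0.02 with GC trends removed and 0.02 after quantile normalization. This shift of up to 0.15 is that of the median over all genes and sets no limit for a single gene or list. With GC trends removed the median change of the heat shock list went from -0.49 to -0.21. That of the interferon list went from -1.56 to -1.61. The change correlated with transcript GC content across genes (Spearman -0.36), and the median GC content was 55.2% in the 1190 genes against 50.7% in all. The counts moved with the scaling: 887 smaller and 330 larger with GC trends removed, 606 and 277 after quantile normalization, and 674 and 117 after median-of-ratios rescaling.

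More genes passed on day 3 than on day 7 in the joint fit. On day 3, 877 genes rose and 4 fell in the lasered retinas (5.67% and 0.102% of all genes tested), and on day 7, 15 rose and 1 fell (0.114% and 0.0114%). At an unadjusted p under 0.05, 19.5% of all genes tested were higher and 2.35% lower on day 3, and 2.82% and 0.812% on day 7. The lasered and control groups did not overlap in 27.9% (higher) and 3.56% (lower) on day 3 and in 6.35% and 1.91% on day 7. Of the 877 genes, 674 (76.9%) were still above their controls on day 7, where 65.4% of all genes were, and in 309 (35.2%) the day 7 groups did not overlap, where 7.06% of protein-coding genes did not. These 877 were chosen by their day 3 values. These counts hang on the shared estimate of spread: leaving out 1 library at a time gave 63 to 1385 genes on day 3, and each table on its own gave 1 on day 3 and 4 on day 7. With library weights the order turned, to 1702 genes on day 3 and 3826 on day 7.

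**Figure D1:**
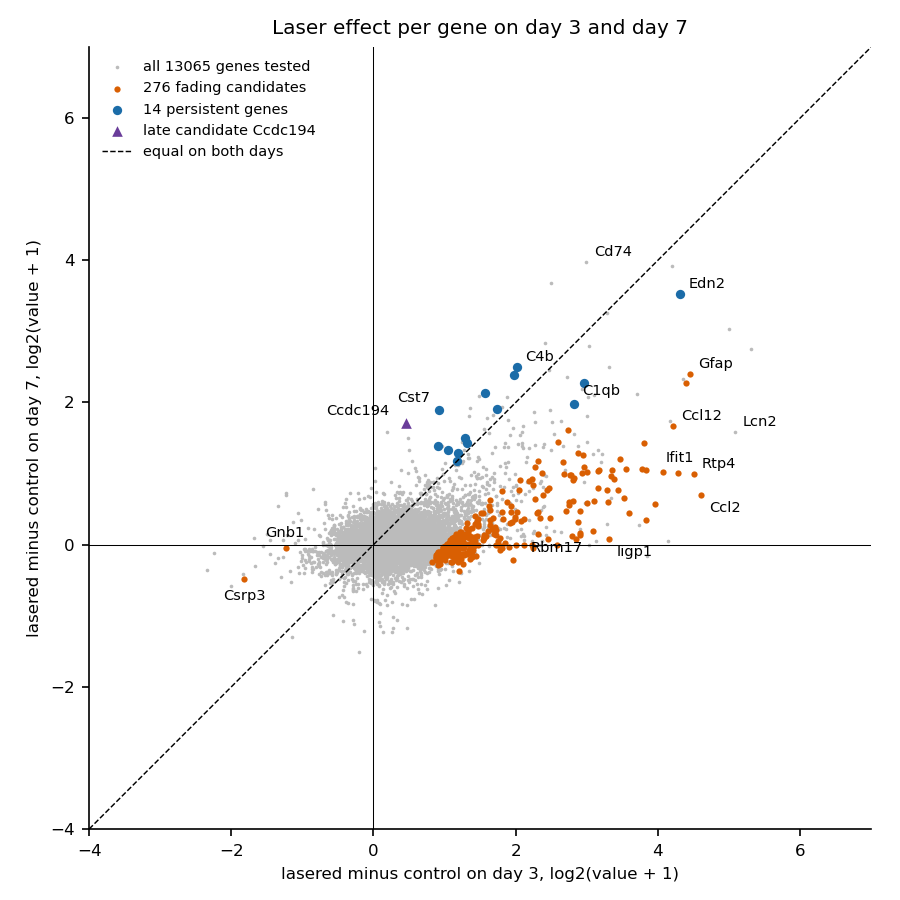
Laser effect of each gene on day 3 (horizontal axis) and day 7 (vertical axis), both as lasered minus control log2(value + 1), with 1 point per gene and the dashed line where both are equal. The 14 persistent genes lie near the line, while the 276 fading candidates, chosen by these same values, spread along the horizontal axis.

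Genes past the threshold with the same sign on both days are called persistent. There were 14 (0.102% of all genes tested), and all 14 rose. They were Edn2, Fcrls, C4b, C1qb, Slc6a2, C1qc, Lad1, Pld4, Trem2, Csf1r, Clu, Tnnt2, Calca and Cst7, and 7 of them are genes of microglia or of the classical complement pathway in the lists used here. None of the 14 passed the test of change between the days, with changes from -0.84 (C1qb) to 0.98 (Cst7).

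Edn2, which encodes the vasoactive peptide endothelin 2, had the largest effect of the 14. Its day 3 controls were at 0.867, 1.33 and 0.810 and its lasered retinas at 77.2, 22.97 and 32.1. On day 7 the controls were at 18.5, 29.0 and 9.28 and the lasered retinas at 209, 176 and 248. No lasered value of either day reached down to the controls, and the laser effect was 4.31 (SE 0.43, adjusted p = 0.000907) on day 3 and 3.53 (adjusted p = 0.0128) on day 7. The change of -0.79 was within its error (SE 0.60, adjusted p = 0.756). It was -1.56 with a pseudocount of 0.1, since day 3 controls were low, and -0.29 without day 3 lasered replicate 1.

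The complement genes on this list make up the start of the classical cascade. C1qb, which with C1qa and C1qc forms the recognition molecule C1q, stood at 10.7, 18.3 and 13.7 in day 3 controls and at 154, 80.3 and 92.6 in lasered retinas. On day 7 the values were 33.2, 30.4 and 28.7 in controls and 121, 113 and 141 in lasered retinas. C1qc went from 0.864, 1.40 and 1.53 to 9.82, 5.84 and 4.61 on day 3, and from 17.9, 14.7 and 11.4 to 54.8, 48.8 and 68.0 on day 7. The groups were apart on both days for both subunits, with effects of 2.82 and 1.98 for C1qb and of 1.73 and 1.90 for C1qc. C4b, the component that C1 cleaves, read 1.97, 1.36 and 1.76 against 12.3, 7.79 and 9.85 on day 3 and 6.01, 8.01 and 6.403 against 37.0, 37.9 and 55.4 on day 7. Its effect was 2.01 (SE 0.21, adjusted p = 0.0013) and then 2.49 (adjusted p = 0.00149). C4b is a near copy of C4a, so the counting may have split reads between them. Over the whole classical complement list, 6 of 6 tested genes rose on day 3 and 3 on day 7, and in all 6 the groups were apart on both days (3.96% of all genes tested were higher on both days without overlap). The mean of the list was above the controls by 3.09, 1.82 and 1.94 in the lasered libraries of day 3 and by 1.83, 1.94 and 2.15 on day 7.

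Microglial genes formed the next group. Fcrls, an Fc receptor-like gene of microglia, read 0.585, 0.733 and 0.254 in day 3 controls and 19.5, 6.55 and 9.61 in lasered retinas, then 1.54, 1.32 and 1.83 against 12.3, 9.42 and 12.6 on day 7. Csf1r, the receptor for the growth factor that microglia depend on, read 1.43, 2.19 and 2.15 against 6.96, 5.54 and 4.52, then 13.7, 12.6 and 14.2 against 29.1, 35.8 and 39.4. Trem2, a lipid-sensing receptor of phagocytic microglia, read 1.32, 1.47 and 1.36 against 6.64, 4.06 and 4.12, then 1.58, 1.66 and 1.77 against 6.25, 5.98 and 7.604. All 3 receptors were above the controls in every lasered library, with changes between the days of -0.69 (-0.29 for Fcrls without day 3 lasered replicate 1), 0.11 and 0.21. Pld4, an enzyme of myeloid lysosomes, was higher by 1.31 on day 3 and 1.43 on day 7. In bulk tissue, more cells of a type and more RNA per cell cannot be told apart. Of the 13 tested homeostatic microglia genes 6 rose on day 3 and 2 on day 7, with a median effect of 0.72 and 0.57, while P2ry12, the purinergic receptor that marks resting microglia, had an effect of -0.40 and -0.12 with overlapping groups.

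The other persistent genes come from several classes. Clu, an extracellular chaperone abundant in glia, read 1043, 1360.1 and 970.5 against 2653, 2102 and 2806 on day 3 and 1022, 885 and 1120.2 against 2244, 2200.2 and 2386 on day 7. Its effects of 1.17 and 1.18 gave the smallest change of the 14, at 0.01 (SE 0.24). Slc6a2, the noradrenaline transporter, had 0, 3 and 0 reads in day 3 controls and 211, 81 and 68 in lasered retinas, then 15, 29 and 6 against 272, 263 and 500. Lad1, a basement membrane protein, Tnnt2, a troponin of striated muscle, and Calca, which encodes calcitonin and the neuropeptide CGRP, had effects of 1.57, 1.046 and 0.91 on day 3 and 2.13, 1.33 and 1.39 on day 7. Cst7, an inhibitor of lysosomal proteases in phagocytes, read 0.148, 0 and 0 against 1.28, 0.604 and 1.12 on day 3 and 0.879, 0.204 and 0.640 against 4.44, 3.83 and 6.27 on day 7. Its change of 0.98 (adjusted p = 0.403) was 0.04 with a pseudocount of 0.1, so it rests on the scale.

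Of the persistent genes 11 had a numerically larger effect on day 7, but only 7 did with a pseudocount of 0.1 and 6 with voom on recovered reads. The count of 14 moved with single libraries: it was 69 without day 3 lasered replicate 1, of which 12 were among the 14, and 1 without day 7 control replicate 1, control replicate 3 or lasered replicate 3. It was 6, 7 and 7 without day 3 control replicates 1, 2 and 3, 6 without day 7 control replicate 2 and 5 without day 7 lasered replicate 1. With the replicate number as a block, only C4b passed on both days.

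**Figure D2:**
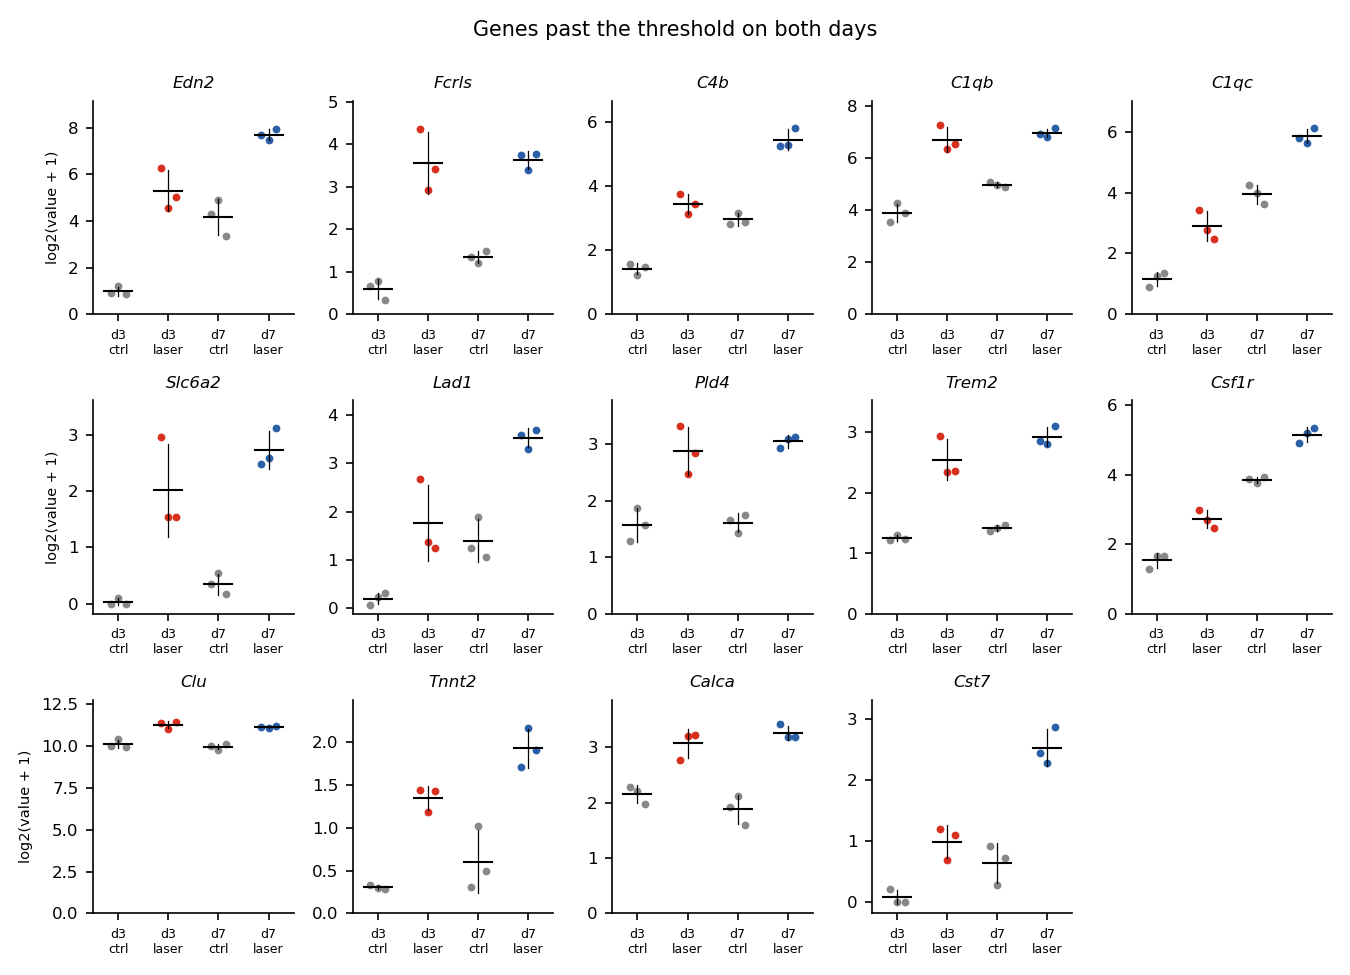
Values of the 14 persistent genes as log2(value + 1), with 1 point per library, a bar at the group mean and a line of 1 SD on each side. In every panel the 3 lasered points of a day lie above the 3 controls of that day.

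A gene was to be called fading where it passed on day 3 and its change passed with the opposite sign, and 0 genes did (limma, and 0 with voom). Instead, 276 genes are described as fading candidates: past the threshold on day 3, with an unadjusted p of change under 0.05, the opposite sign and a size of at least 1 (1.98% of all genes tested). Of these, 274 were higher and 2, Gnb1 and Csrp3, lower on day 3. The rule used these values, so they are given as a description. The median change was -1.30, and -1.06 without day 3 lasered replicate 1, which was the highest lasered library in 252 of the 276. Without it 260 kept an unadjusted p under 0.05, 161 of them also a size of at least 1. With GC trends removed, 158 of the 276 met both, and their median GC content was 54.9% against 50.7% in all. The day 7 controls were over 4 times the day 3 controls (value + 1) in 168 of the 276, or 60.9%, and in 30.5% of all genes tested, a gap between separate tables. The median change was -1.69 in the 104 candidates with controls within 4-fold and -1.19 in the others.

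Among chemokines, Ccl2 had the largest change of the candidates. It had 0, 0 and 1 reads in day 3 controls and 1071, 50 and 70 in lasered retinas, and on day 7 it had 0, 0 and 0 reads in controls and 4, 8 and 8 in lasered retinas. The groups were apart on both days, with lasered values of 181, 6.499 and 11.5 on day 3 and of 0.370, 0.839 and 0.690 on day 7, and effects of 4.61 and 0.70. The change was -3.91 (SE 1.21, adjusted p = 0.396), and -2.50 without day 3 lasered replicate 1, where it passed (adjusted p = 0.0283). Ccl12, like Ccl2 a monocyte attractant acting on CCR2, read 2.26, 1.59 and 2.94 against 85.1, 41.4 and 57.0 on day 3 and 0.197, 2.18 and 0.680 against 4.32, 6.75 and 3.97 on day 7. The effect went from 4.21 (adjusted p = 0.000506) to 1.67 (adjusted p = 0.209), a change of -2.54 (SE 0.51, adjusted p = 0.382), which passed with a pseudocount of 5 (adjusted p = 0.0454). Ccl2 and Ccl12 are close relatives, so some reads may have been assigned to the wrong one. Of 22 tested chemokines and cytokines 5 rose on day 3 and 0 on day 7 (limma; 19 and 5 at an unadjusted p under 0.05). Of the same 22 genes 20 had a negative change, 8 with an unadjusted p under 0.05, and 17 had one without day 3 lasered replicate 1, when the median change went from -1.18 to -0.59. Ccl5, a T cell and monocyte attractant, was 1 of the 2 exceptions, with Cxcl16, at 1.48 on day 3 and 2.09 on day 7, neither past the threshold.

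All 33 tested interferon-stimulated genes had a negative change, from -3.51 (Rtp4) to -0.59 (Psme1), 13 with an unadjusted p under 0.05. On day 3, 24 rose and the groups of all 33 were apart. On day 7, 0 rose (limma; 5 at an unadjusted p under 0.05) while in 24 the groups were still apart. The median effect was 2.75 on day 3 and 0.86 on day 7, and the median change was -1.56, or -0.69 without day 3 lasered replicate 1, when 32 of the 33 stayed negative. The mean of the list was above the controls by 4.36, 1.67 and 1.84 in the lasered libraries of day 3 and by 0.49, 1.44 and 0.78 on day 7, so the lowest library of day 3 was above the highest of day 7.

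Ifit1, which binds foreign RNA, read 6.27, 4.15 and 4.49 in day 3 controls and 490.4, 53.7 and 54.96 in lasered retinas, then 0.161, 0.114 and 0.192 against 0.502, 3.60 and 0.831 on day 7. Its change was -3.27 (SE 0.99, adjusted p = 0.396), and ran from -3.80 to -2.22 with 1 library left out. Rtp4, an interferon-induced chaperone of membrane receptors, read 1.79, 2.53 and 1.30 against 289, 24.7 and 34.4, and then 1.41, 0.702 and 1.19 against 1.19, 8.18 and 2.53, where the groups overlapped. The change of Rtp4 ran from -4.17 to -2.42 with 1 library left out. Iigp1, an interferon-induced GTPase, had 6, 15 and 15 reads against 2246, 183 and 140 on day 3 and 2, 4 and 0 against 0, 9 and 6 on day 7. Its day 7 effect was the smallest of the 33, 0.08 after 3.31 on day 3. Its change was -3.23, and -1.97 without day 3 lasered replicate 1, where it passed (adjusted p = 0.0262). The GTPases Tgtp1 and Tgtp2, near copies of each other whose counts are uncertain, had changes of -3.48 and -3.15 (adjusted p = 0.422 and 0.457), or -2.13 and -1.84 without day 3 lasered replicate 1.

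Irf9 and Bst2 were among the interferon genes above their controls on both days. Irf9, the DNA-binding subunit of the interferon-activated complex, read 4.58, 4.04 and 3.47 against 169, 28.7 and 39.5 on day 3 and 16.6, 16.7 and 16.4 against 30.9, 41.8 and 35.7 on day 7. Bst2, a membrane protein that tethers budding viruses, read 4.27, 6.88 and 4.41 against 512, 55.7 and 71.6, then 14.1, 15.1 and 14.7 against 64.4, 87.3 and 73.4. Both were apart from the controls on both days, with effects of 3.56 and 1.07 for Irf9 and of 4.40 and 2.27 for Bst2, whose change of -2.13 was -1.13 without day 3 lasered replicate 1. Igtp, another interferon-induced GTPase, had effects of 3.17 and 1.051. In the MHC class I list, which interferon also induces, 10 of 13 genes rose on day 3 and 0 on day 7 (limma; 6 at an unadjusted p under 0.05), and the groups of 12 were still apart on day 7, with a median effect of 2.08 and then 1.06. Without day 3 lasered replicate 1 the day 3 median was 1.29, and the median change went from -1.32 to -0.48. H2-D1, a class I heavy chain with near copies in the genome, read 22.2, 47.4 and 31.8 against 1826, 246 and 208 and then 127, 91.1 and 82.1 against 213, 167 and 246.

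Some but not all promoters of the interferon list hold an interferon motif. RefSeq promoter windows (GRCm38.p6, from 250 bases before to 50 after the start) were found for 10212 of 13063 gene symbols, and were searched on both strands for the core of the interferon-stimulated response element, GAAA followed after any 2 bases by GAAA. A match was present in 14 of the 25 interferon genes with a window (56.0%), in 18 of 202 fading candidates (8.91%), in 0 of 10 persistent genes and in 3.53% of all. The interferon list holds genes chosen as interferon-stimulated, and 12 of the fading candidates belong to it, so these shares are not independent. Matches are letters in a window, not shown to be bound. The STAT motif TTCCNGGAA was present in 9 of 202 fading candidates (4.46%) and in 1.58% of all, and the NF-kB motif, GGGA followed after any 3 bases by TCC, in 16 (7.92%) and in 6.33%. Stretches of 90 bases, read on the gene's own strand with the matches in capitals, are shown for 4 fading candidates with an interferon match and for Steap4, a reactive glial gene with a STAT match. Bst2 and Tgtp1 also hold the STAT motif, which is not in capitals as such. They belong to Ifit1 (chr19:34640750-34640839, plus strand, matches from 104 to 95 and from 85 to 76 bases before the start), Bst2 (chr8:71537548-71537637, minus strand, overlapping matches from 130 to 115), Igtp (chr11:58199466-58199555, plus strand, from 34 to 25), Tgtp1 (chr11:48992269-48992358, minus strand, from 77 to 68) and, for the STAT motif, Steap4 (chr5:7960321-7960410, plus strand, from 116 to 108).
Ifit1: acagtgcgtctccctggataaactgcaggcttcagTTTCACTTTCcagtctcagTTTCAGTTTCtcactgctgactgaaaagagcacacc
Bst2: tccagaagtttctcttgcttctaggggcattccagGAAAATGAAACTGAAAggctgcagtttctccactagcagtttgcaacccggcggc
Igtp: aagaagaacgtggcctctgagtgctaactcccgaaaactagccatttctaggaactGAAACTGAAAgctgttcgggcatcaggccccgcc
Tgtp1: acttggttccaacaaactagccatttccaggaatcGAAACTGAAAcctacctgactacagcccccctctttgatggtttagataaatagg
Steap4: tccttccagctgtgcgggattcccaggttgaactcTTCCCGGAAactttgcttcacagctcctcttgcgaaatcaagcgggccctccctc

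Ifit1 carries the motif as its reverse complement in a tandem pair, Bst2 as a pair that shares 4 bases, and Igtp and Tgtp1 the same 10 letters once. The 14 interferon genes with a match had changes from -3.27 (Ifit1) to -0.59 (Psme1), and the 11 with a window and no match from -2.49 (Irf9) to -0.94 (Samhd1), so the ranges of the groups with and without a match overlapped.

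Most reactive glial genes had a numerically smaller effect on day 7. Gfap, which builds the filaments of astrocytes and of stressed Müller cells, read 5.32, 8.68 and 5.43 against 412, 93.8 and 104 on day 3 and 31.5, 34.3 and 15.2 against 164, 119.7 and 136 on day 7. Its effect was 4.45 and then 2.40, with the groups apart on both days and a change of -2.05 (SE 0.69, adjusted p = 0.403). Steap4, a metalloreductase induced in inflammation, whose promoter is printed above, read 0.388, 0.895 and 0.3001 against 132, 6.14 and 15.9, then 0.272, 0.388 and 0.120 against 0.710, 4.19 and 0.843. Osmr, the receptor subunit for oncostatin M, had effects of 1.93 and 0.47, and Vim, another intermediate filament, of 2.81 and 0.91. Stat3, the transcription factor downstream of such receptors, read 2.88, 2.86 and 2.84 against 25.1, 9.52 and 9.71 and then 25.1, 31.4 and 26.1 against 57.6, 61.7 and 68.8, a change of -0.73 (adjusted p = 0.632), or -0.30 without day 3 lasered replicate 1. Lcn2, an iron-carrier binding protein, read 9.19, 8.56 and 7.67 against 3906, 44.5 and 182 on day 3, so that its change of -3.50 (adjusted p = 0.536) was -1.69 without lasered replicate 1. Over the list, 16 of 26 tested genes rose on day 3 and 1, Edn2, on day 7, and 24 had a negative change. The median effect was 2.23 and then 0.98, and the groups of 18 genes were still apart on day 7. Without day 3 lasered replicate 1 the day 3 median was 1.48, the median change went from -1.04 to -0.39 and 21 changes were negative.

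Of the 25 tested Trem2 and phagocyte genes 21 had a negative change, and 15 did without day 3 lasered replicate 1. Lgals3, a galectin of activated phagocytes, read 0.341, 0.886 and 0.531 against 48.2, 9.00 and 7.95 on day 3 and 3.56, 4.19 and 2.58 against 9.69, 6.62 and 6.13 on day 7, a change of -2.46 (SE 0.72, adjusted p = 0.396). Spp1, which encodes osteopontin, read 28.8, 26.5 and 32.8 against 1169.9, 138 and 163 and then 3.98, 12.7 and 3.33 against 4.99, 23.3 and 6.00, where the groups overlapped. Cd68, a lysosomal glycoprotein, had effects of 2.74 and 1.62. Lyz2, the lysozyme of macrophages, had effects of 4.20 and 3.92, with a change of -0.28 (SE 1.15). In the same list 17 rose on day 3 and 2, Trem2 and Cst7, on day 7, 4 were fading candidates, and in 18 the groups were apart and higher on both days. For infiltrating monocytes and macrophages all 10 tested genes had a negative change, with a median effect of 1.754 and then 0.12. The list was above the controls by 3.90, 0.34 and 0.73 in the day 3 lasered libraries, so this median rests largely on replicate 1 and without it the day 3 median was 0.51 and the median change went from -1.55 to -0.45. The 6 tested neutrophil genes had effects with a median of 2.30 (1.003 without day 3 lasered replicate 1) and then 0.14, with 0 past the threshold on either day (limma; 5 on day 3 and 0 on day 7 at an unadjusted p under 0.05). S100a8 read 476, 1.29 and 23.3 in the day 3 lasered retinas and 0.451, 0 and 0 on day 7.

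Of the 6 tested MHC class II presentation genes 3 had a negative change, down to -0.94 (H2-DMa), and 3 a positive one. Whether this list differs from the others was not tested. Cd74, the invariant chain, read 3.23, 3.32 and 2.63 against 148, 8.80 and 21.8 on day 3 and 2.08, 1.45 and 1.68 against 51.6, 36.7 and 38.7 on day 7. H2-Eb1, a class II beta chain, read 0.390, 1.18 and 1.01 against 38.7, 2.87 and 6.22 and then 1.99, 1.02 and 0.647 against 35.0, 23.2 and 23.4. On day 7 the lasered libraries were alike and far above the controls, while on day 3 replicate 1 was several times the other lasered libraries. The effects were 2.99 and 3.98 for Cd74 and 2.50 and 3.69 for H2-Eb1, past the threshold on day 3 and just short of it on day 7 (adjusted p = 0.0716 and 0.0689). Their changes of 0.99 and 1.18 were far from passing, and without day 3 lasered replicate 1 they were 2.09 (adjusted p = 0.236) and 2.15 (adjusted p = 0.291). Over the 6 genes the median change was 0.21, with a range over all alternatives from -0.20, without day 3 lasered replicate 2, to 1.23, without replicate 1. The list mean was above the controls by 3.83, 0.91 and 1.51 on day 3 and by 2.53, 2.12 and 2.38 on day 7. Bcl3, an atypical inhibitor of NF-kB in the gliosis list, had effects of 3.04 and 2.79.

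**Figure D3:**
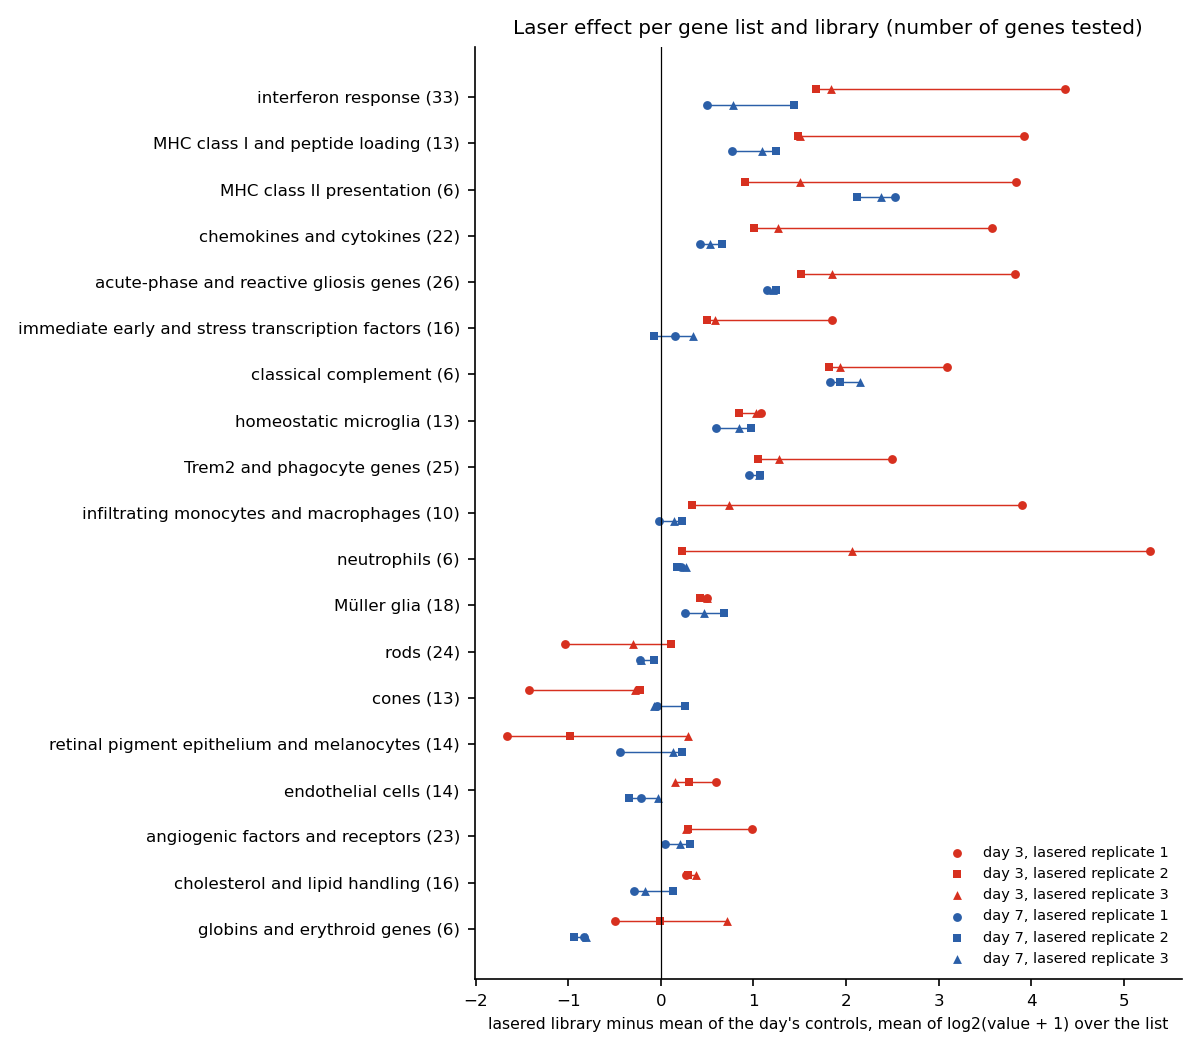
Mean laser effect of each gene list in each lasered library, as the list's mean log2(value + 1) minus its mean in the 3 controls of the day, red for day 3 and blue for day 7, with the number of genes tested in brackets. Day 3 replicate 1 (red circle) lies far from the other red points in most immune lists, and the class II list is the one immune list shown whose 3 blue points lie above the other red points.

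Several candidates outside the immune and glial lists had low controls on day 3. Olfm2, an olfactomedin of neurons, had the smallest p of change after that of Gm10800, a predicted gene. It read 10.9, 16.8 and 13.99 against 63.6, 52.1 and 51.1 on day 3 and 78.9, 57.9 and 74.1 against 108, 96.5 and 103 on day 7, a change of -1.39 (SE 0.25, adjusted p = 0.325). Rbm17, a splicing factor, read 6.44, 5.77 and 5.83 against 146, 28.6 and 47.4 and then 45.0, 59.1 and 46.9 against 53.1, 57.8 and 61.4. Lin7b, a scaffold of cell polarity and synapses, read 1.99, 3.35 and 3.84 against 55.1, 19.0 and 22.5 and then 22.7, 18.4 and 21.1 against 32.5, 12.7 and 28.6. For both, the groups overlapped on day 7 and the day 3 controls were the outlying group, at values several times under the day 7 controls. Whether that gap belongs to the retinas or to the tables cannot be told apart. The changes were -2.89 for Rbm17, which passed without day 3 lasered replicate 1 (-2.24, adjusted p = 0.0283), and -2.77 for Lin7b. Pomgnt2, a glycosyltransferase of dystroglycan, and Rpn1, a subunit of the enzyme that attaches N-glycans, had changes of -1.42 and -1.27, with effects of 1.22 and -0.20 and of 1.19 and -0.08.

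Gadd45b, a stress sensor of injured neurons, read 0.970, 1.17 and 0.501 against 26.5, 9.46 and 10.5 and then 27.9, 25.6 and 20.7 against 55.5, 41.4 and 57.5, a change of -1.98 (adjusted p = 0.382). Crym, which binds thyroid hormone and is a Müller glia marker, read 56.8, 65.3 and 50.2 against 824, 306 and 353 and then 105, 83.4 and 82.1 against 232, 203 and 215, a change of -1.68 (adjusted p = 0.382). The groups of both were apart on both days. Atf3, a stress-induced transcription factor, had effects of 2.69 and 0.99, Hmox1, the inducible haem oxygenase, of 3.15 and 1.04, and Mt2, a metallothionein, of 3.00 and 0.59. Their changes of -1.69, -2.11 and -2.41 were -1.01, -1.19 and -1.41 without day 3 lasered replicate 1. Of 16 immediate early and stress transcription factors, 15 had a negative change, with a median of -0.79 (-0.39 without that library), and 2, Atf3 and Ier2, were candidates.

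**Figure D4:**
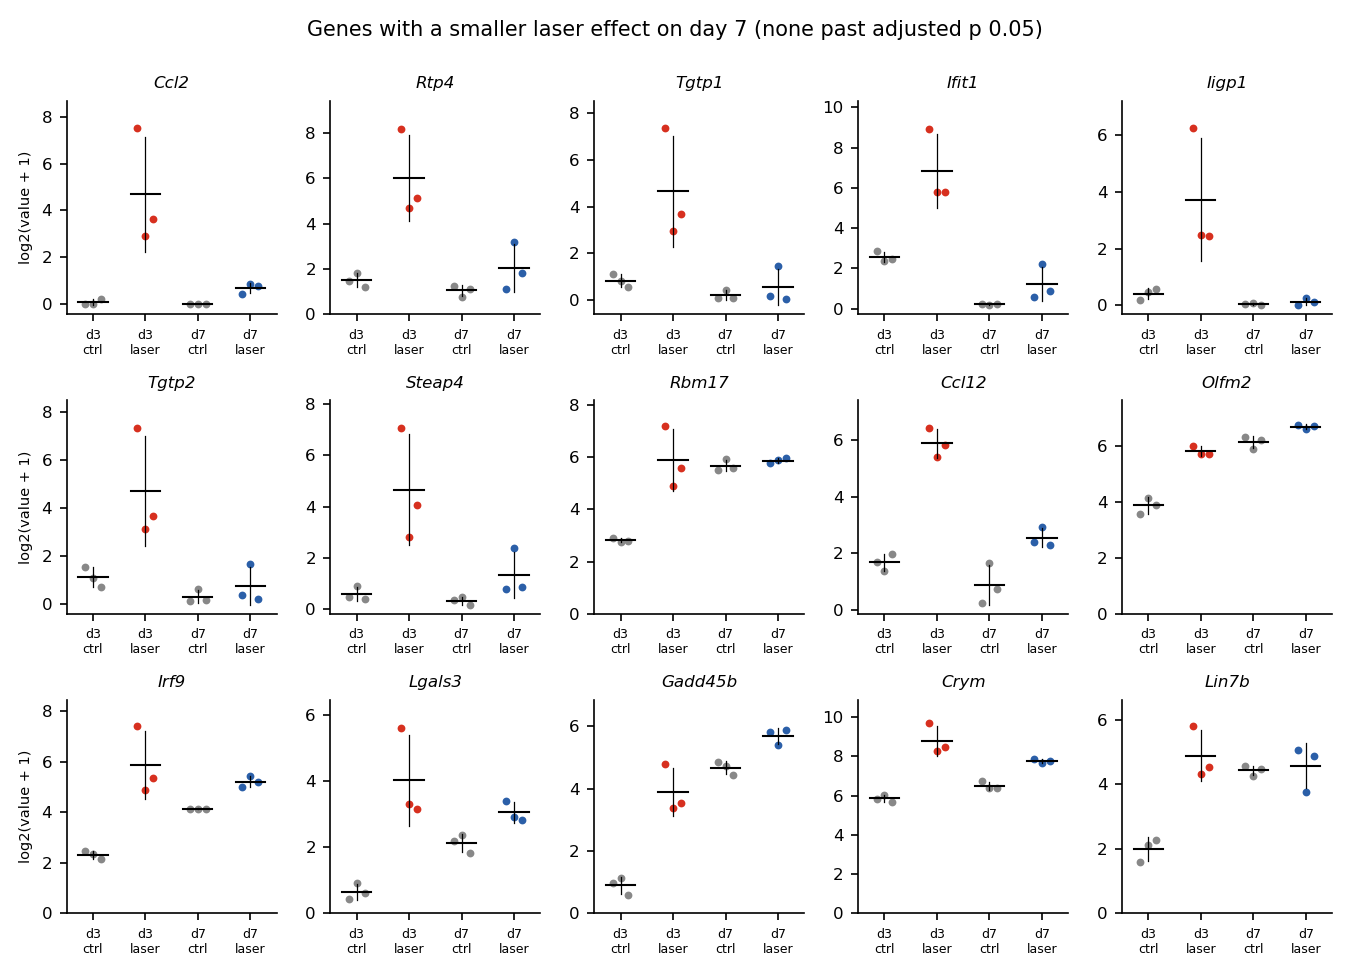
Values of 15 genes with a smaller laser effect on day 7 as log2(value + 1), with 1 point per library, a bar at the group mean and a line of 1 SD on each side. Ccl2, Iigp1 and Tgtp1 are close to the controls on day 7, Irf9, Crym and Gadd45b stay above them, and in Rbm17, Olfm2 and Lin7b the day 3 controls are low.

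A gene was to be called late where it passed on day 7 and its change passed with the sign of day 7, and 0 did. Of the 16 genes past the threshold on day 7, 2 had not passed on day 3, Ccdc194 among them. Ccdc194 also met the rule for candidates, an unadjusted p of change under 0.05 with a size of at least 1, and Cst7, at 0.98, lay just outside it.

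Several genes of cholesterol supply were lower in the day 7 lasered retinas, and those named here did not pass. Srebf2, the transcription factor that drives cholesterol synthesis, read 3.55, 4.78 and 4.73 against 6.27, 8.19 and 6.24 on day 3 and 168, 153 and 147 against 122, 84.7 and 110.0 on day 7. It was higher on day 3 and lower on day 7 with no overlap on either day, a pattern shared by 25 protein-coding genes (0.244% of all genes tested), Mvd of cholesterol synthesis among them. The control means were 4.35 on day 3 and 156 on day 7 for Srebf2, and 4.97 and 61.7 for Mvd. Whether that gap belongs to the retinas or to the tables cannot be told apart. The effects of Srebf2 were 0.56 and -0.58, and the change was -1.14 (SE 0.25, adjusted p = 0.382). Insig1, which holds back the SREBP factors, read 94.3, 147 and 98.9 in day 7 controls and 58.0, 65.7 and 44.2 in lasered retinas. Fdft1 and Sqle, consecutive enzymes of sterol synthesis, had effects of -0.71 and -0.42 on day 7 against -0.44 and 0.28 on day 3. Abcg1, which exports cholesterol, was the one gene of this list with a positive change, at 0.63 (adjusted p = 0.474). Of the 16 tested cholesterol and lipid genes 15 had a negative change, 12 with GC trends removed, and the median effect was 0.06 on day 3 and -0.35 on day 7. In this list 4 genes rose on day 3, and on day 7 0 rose and 1, not named here, fell (limma). At an unadjusted p under 0.05, 1 was higher and 4 were lower on day 7. The opposite reversal, lower on day 3 and higher on day 7 without overlap, was seen in 7 genes (0.0625% of all genes tested). One of them was Glul, the glutamine synthetase of Müller glia, with 67.2, 285 and 238 in day 3 lasered retinas against 310.2 to 318 in controls. On day 7 it read 3607.1, 3252.9 and 3539.3 in controls and 3610.3, 4203.4 and 4438.3 in lasered retinas, so the groups were barely apart. The day 7 effect was 0.23 (limma, unadjusted p = 0.572). Its controls also differed between the tables, with means of 315 on day 3 and 3466 on day 7.

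Ccdc194, a coiled-coil gene, had 0, 0 and 0 reads in day 3 controls and 10, 0 and 2 in lasered retinas. On day 7 it had 7, 11 and 0 reads in controls and 61, 54 and 54 in lasered retinas. The lasered group was apart only on day 7, with an effect of 1.71 (adjusted p = 0.0447) and a change of 1.26 (SE 0.39, adjusted p = 0.396). At these read numbers a similar effect on day 3, when libraries were shallower, was not detectable with any precision, and with voom the change had an adjusted p = 0.858. P2rx3, an ATP-gated channel, read 1.99, 1.88 and 2.26 against 0.898, 1.17 and 1.07 on day 3 and overlapped on day 7, a change of 0.81 (adjusted p = 0.396). Of the other genes named for a positive change, St8sia2, Srpx2, Mppe1 and Nt5dc2 had changes of 0.72, 0.96, 0.69 and 0.75, with effects from -0.47 to -0.31 on day 3 and from 0.28 to 0.53 on day 7.

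**Figure D5:**
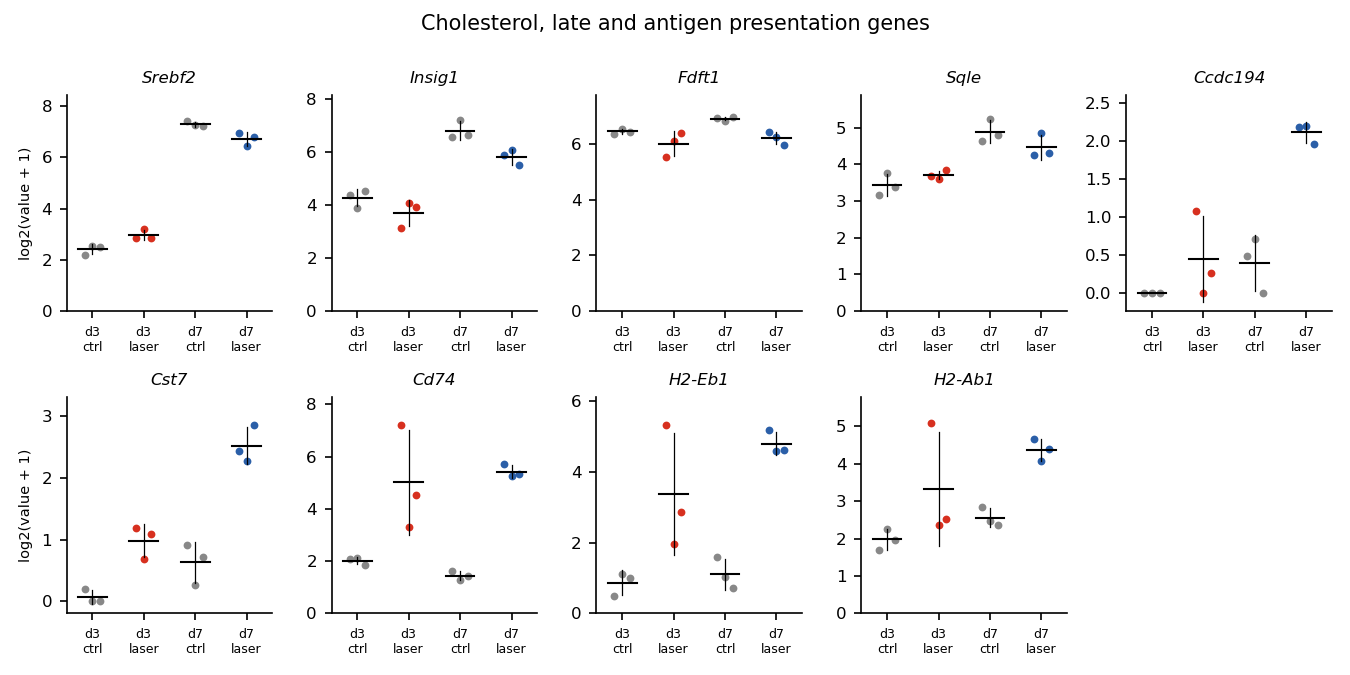
Values of 4 cholesterol genes, Ccdc194, Cst7 and 3 MHC class II presentation genes as log2(value + 1), with 1 point per library, a bar at the group mean and a line of 1 SD on each side. The day 7 lasered points of Srebf2, Insig1 and Fdft1 lie under their controls, and those of Ccdc194, Cst7, Cd74, H2-Eb1 and H2-Ab1 above.

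Photoreceptor genes leaned to a positive change, by an amount that differed with day 3 lasered replicate 1. Rhodopsin read 11840.2, 10859 and 9098 in day 3 controls and 2559.8, 8152 and 6439 in lasered retinas, then 25472, 25616 and 28764 against 22691, 18644 and 19308. The groups were apart on both days, with effects of -1.04 and -0.40, neither past the threshold (adjusted p = 0.093 on day 3), and a change of 0.64 (adjusted p = 0.746) that was 0.14 without day 3 lasered replicate 1. Gnb1, a transducin subunit also used outside rods, fell on day 3 (-1.23, adjusted p = 0.0456; -0.82 without that library) and had an effect of -0.04 on day 7. Opn1sw, the short-wave cone opsin, read 974, 1070.2 and 986 against 73.3, 644 and 652 on day 3 and overlapped on day 7. In 19 of 24 rod genes and 10 of 13 cone genes the change was positive, with median effects of -0.44 and -0.18 in rods and of -0.43 and 0.05 in cones. The mean of the rod list differed from the controls by -1.03, 0.11 and -0.29 in the day 3 lasered libraries, and that of the cone list by -1.42, -0.23 and -0.28. Without replicate 1 the rod medians were -0.17 on day 3 and 0.06 for the change (0.22 with it), and 11 of 24 rod changes were negative in place of 5. For cones the median change went from 0.54 to 0.32, and 2 of 13 were negative in place of 3. Csrp3, a muscle LIM protein, was the other lower candidate and read 10.2, 8.02 and 7.45 against 0.225, 3.24 and 2.69 on day 3 and 3.16, 3.13 and 3.68 against 2.37, 2.33 and 1.62 on day 7.

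Angiogenesis is the subject of the series title. Of 23 tested angiogenic factors and receptors 2, Pgf and Fgf2, rose on day 3 and 0 on day 7 (limma, 5.67% and 0.114% of all genes tested). At an unadjusted p under 0.05, 3 were higher on day 7 (2.82%). The median change was -0.21, with 16 of 23 negative, near the -0.13 and 8515 of 13065 of all protein-coding genes. Without day 3 lasered replicate 1 the angiogenic list had -0.11 and 13, where the median of all protein-coding genes was -0.09. Pgf, a ligand of VEGF receptor 1, had effects of 2.16 and 0.88, and its change was -1.29 (adjusted p = 0.683) and -0.39 without day 3 lasered replicate 1. Fgf2, a growth factor of injured photoreceptors and glia, read 1.87, 1.42 and 2.45 against 29.2, 7.16 and 9.60 and then 0.463, 1.02 and 0.558 against 2.87, 9.80 and 4.42. Its effects of 2.26 and 1.87 left a change of -0.38 (SE 0.65), or 0.18 without day 3 lasered replicate 1. Vegfa had effects of 0.25 and -0.24 and Kdr, the main VEGF receptor, of 0.99 and 0.89, none past the threshold. In 12 of 14 endothelial genes the change was negative, with a median of -0.46. Cldn5, the tight junction protein of the blood-retina barrier, had the largest, at -1.73 (adjusted p = 0.456).

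Genes of neighbouring tissue had numerically different effects on day 3 and day 7. In the pigment epithelium and globin lists 0 changes had an unadjusted p under 0.05 (limma). The 14 genes of pigment epithelium and melanocytes had a median effect of -0.85 on day 3 and 0.06 on day 7, and 13 had a positive change. The list mean differed from the controls by -1.66, -0.98 and 0.29 in the day 3 lasered libraries. Without replicate 1 the day 3 median was -0.33, and the median change went from 0.65 to 0.29. Rpe65, the isomerase of the visual cycle, read 27.6, 43.3 and 46.4 against 2.11, 19.3 and 57.9 on day 3 and 4.33, 20.3 and 19.6 against 7.90, 41.2 and 18.3 on day 7. The groups overlapped on both days, and the spread was wide in all but the day 3 controls. Globin genes had a median effect of 0.17 and then -1.16, with Hba-a1 at 101, 683 and 1443 in day 3 controls and 29.5, 27.8 and 18.6 in day 7 controls. The part of carried-over epithelium and blood in the other results was not tested.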

How the data were processed

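The 12 retina libraries were poly(A) RNA-seq with a directional kit, per the labels' protocols, in 4 groups of 3 taken from the sample titles. Per the submitters' processing notes STAR 2.7.0, edgeR 3.28.0 and mm10 were involved, in roles not stated. The authors' counting tool and annotation release were not given in the sources used here. Both deposited tables, 1 per day, hold a signal for each gene that the authors name TPM, with column sums of 953049 to 1045986, so they are not TPM in the strict sense. Multiplied by exon length (GENCODE M21), they gave whole reads within 0.05 for 98.9% to 99.2% of values under 20 reads, once a factor of 6 values cycling by row was taken out, and hence the depth. Intervals from reads cover counting error only.

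The tables were joined by gene identifier. The change was the interaction of day and laser in limma 3.58.1 (R 4.3.3; lmFit, eBayes with trend, 2-sided) on log2(value + 1) over 12 libraries and 17611 genes of all biotypes with a mean of at least 1, adjusted by Benjamini-Hochberg (threshold 0.05). Fold changes on this scale understate low genes. The design assumed TPM and kept this test for the signal. The fit was tested on simulated reads with the same spread for all genes and no outlying library. A change was placed in the day 7 lasered libraries, only in genes with many reads. The fit recovered 3% of genes with a log2 change of 1 and 69% of those with 2, and called 5 unchanged genes. These shares do not cover genes with few reads. Summaries and plots used pandas 2.3.3, NumPy 2.4.6 and matplotlib 3.10.9 in Python 3.11.15.

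Members and 40 lists with 658 genes were chosen with earlier results of these data known. Named were the persistent genes, the 6 smallest p of change per direction, the 8 largest candidates, up to 4 members per list by smallest p, and fixed genes, without predicted gene names. Igtp, Mvd, Csrp3, Ifit1 and other promoter examples, Psme1, Samhd1 and Cxcl16 were chosen after their values were seen. Alternatives covered pseudocount, filter, biotypes, scaling, weights, spread, voom on recovered reads, replicate block and each library left out. Undoing the cyclic factor, removing GC trends and both block and GC were added after seeing the data. Results for some genes are not reported here.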

Additional observations from a re-analysis of the deposited data

How the results depend on the processing

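The shared replicate numbers were tested as a block. For lasered and control libraries with one number, the correlation of the residuals was 0.039, 0.013 and 0.077 on day 3 and 0.478, 0.544 and 0.123 on day 7. Across numbers, day 7 lasered replicate 3 correlated more with control replicate 1, at 0.196, than with control replicate 3. These correlations cannot tell which libraries share a mouse, since residuals from a mean of 3 libraries depend on one another. With the replicate block 1 gene passed on day 7 and 1, C4b, on both days, as it did with the block and GC trends removed together, where 151 passed on day 3. Leaving out 1 library at a time gave 0 to 4 genes with a smaller effect on day 7, as many fading genes, 0 larger and 0 late, 63 to 1385 genes on day 3, 1 to 87 on day 7 and 1 to 69 persistent genes. The 4 were Ccl2, Rbm17, Iigp1 and Gm49339, without day 3 lasered replicate 1, and Gm10800 passed without day 3 control replicate 3. Library weights gave 696 smaller and 48 larger changes, 1702 genes on day 3, 3826 on day 7, 706 persistent, 588 fading and 176 late, but the weights ran from 0.118 to 39.55 within the day 7 lasered group and are no basis for a call. Without the filter 6 changes were smaller and 1 larger, with 502 genes on day 3, 7 on day 7, 4 persistent, 6 fading and 1 late. With a pseudocount of 5, 2 changes passed (Ccl12 and Gm10800), both fading, with 474 genes on day 3. Day 3 counts were 165 after median-of-ratios rescaling (9 persistent), 201 after quantile normalization, 251 with voom, 529 with GC trends removed (31 on day 7) and 1448 with 1 spread per group (9 on day 7, 8 persistent). A mean of at least 5 gave 8 on day 7 and 8 persistent. Each day in its own table gave 1 on day 3 and 4 on day 7. Of 1344 values of single genes, 1132 kept direction and side of the threshold, 185 lost the call, 27 gained one and 0 reversed. Of 1064 list medians 11 moved by more than their spread. A median could change sign without being counted among these. With 1 library left out, the median change ran from -0.74 to 0.10 in the classical complement list and from -1.91 to 1.43 in lens crystallins. The cause of these moves was not tested. Day 3 libraries were the shallower, where 3 reads in a gene of 1 kb correspond to a value of 0.445 to 0.605, against 0.292 to 0.380 on day 7.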
